A study of Homo sapiens with 12 samples.

Results

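LINC RNAs are long non-coding RNAs whose genes lie between protein-coding genes and which carry a registry number, LINC followed by digits, for want of a name based on function. The 223 genes described here are the LINC symbols selected on their level, a mean of at least 1 CPM (the raw count scaled to a library total of 1000000) across all 12 libraries of the series, out of 67049 gene IDs in all. Of 2267 gene IDs with a LINC symbol, 2044 lay below that mean and 777 of these had no count in any library. The level over all libraries chose the genes, so the level itself is a description. At the threshold, LINC00539 and LINC02067 were the lowest inside, with means of 1.00 and 1.03 CPM, while LINC01144 and LINC01011 were the highest outside, with 0.977 and 0.967 CPM. In all, 10 genes lay within 10% above the threshold and 14 within 10% below it. The 223 IDs carry 222 symbols, because LINC01605 has 2 IDs at the same locus.

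Long non-coding RNAs are capped and spliced like mRNA, and many end in a poly(A) tail, yet many stay in the nucleus. Splicing and the cap recruit export adaptors such as ALYREF and the THO complex, which hand an RNA to the export receptor NXF1. Retention elements that bind nuclear proteins, the U1 snRNP, and decay by the nuclear exosome with its targeting factors ZFC3H1 and MTREX work against export. A LINC RNA in the cytoplasm can meet ribosomes, and some RNAs once numbered as LINC were later found to encode small proteins.

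The libraries came from HEK293T cells, an established human embryonic kidney line, harvested 48 h after transient transfection with the lipid reagent Lipofectamine 2000. The 4 groups, of 3 libraries each, were cytoplasm of cells given a plasmid for SF3B1 with the K700E substitution (K700E), nuclei of the same kind of cells, cytoplasm of cells given wild-type SF3B1 (WT), and their nuclei. SF3B1 belongs to the U2 snRNP and helps to choose the branch point of introns, and its K700E change recurs in blood cancers. The plasmid was pIRES2-SF3B1 in both cases, the cells also held their own SF3B1 genes, and no untransfected cells were analysed here. The labels name no separate cultures for the 3 libraries of a group, so p-values measure a spread that may be technical. The title of the study names mRNA export and contacts between SF3B1 and the THO subunit THOC5 as its subject.

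Library totals ran from 13422598 to 18116929 counts in cytoplasm and from 9086743 to 11200562 in nuclei, and no 2 libraries held identical counts. The fractions carried their markers in both constructs: all 5 cytoplasmic markers (MT-CO1, MT-CO2, MT-ND4, RPLP0, RPS23) were called higher in cytoplasm and all 3 nuclear RNAs (MALAT1, NEAT1, KCNQ1OT1) lower, with median log2 differences of 3.25 and -6.26 in K700E and of 3.60 and -6.16 in WT. SF3B1 itself averaged 7924 ± 882 TMM-scaled CPM in K700E cytoplasm, 1600 ± 500 in K700E nuclei, 9430 ± 1061 in WT cytoplasm and 1577 ± 784 in WT nuclei (SD, n = 3 each), and gene counts do not part plasmid from cellular RNA or K700E from WT. The cell-line genes VIM, KRT8, KRT18, NEFL, NEFM and PAX2 were detected and all 6 passed the filter. Of 8 markers of blood, fibroblasts and liver, 3 (COL1A1, PDGFRA, ALB) passed the filter and CD3E had 0 counts throughout. Their summed level was 19.1 to 31.5 CPM in K700E cytoplasm, 45 to 56.6 in K700E nuclei, 18.4 to 24.4 in WT cytoplasm and 37.3 to 134.3 in WT nuclei, a difference in the same direction as that of most LINC RNAs, and its part in the results was not tested. Each CPM value is a share of its own fraction's RNA, so a ratio of cytoplasm to nucleus does not give the share of molecules per cell in each place, and less of an RNA per cell cannot be told apart from fewer cells that hold it.

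LINC RNAs were a larger share of nuclear than of cytoplasmic RNA in both constructs. Their summed level was 812 ± 39.2 CPM in K700E cytoplasm, against 2467 ± 363 in K700E nuclei, and 777 ± 19.3 CPM in WT cytoplasm, against 2526 ± 327 in WT nuclei (SD, n = 3 each). Cytoplasmic libraries did not overlap nuclear ones in either construct. The sum depends on how members were chosen and is a description, since 100 reached 1 CPM in nuclei alone and 3 in cytoplasm alone. The lowest nuclear sum, 2159 CPM, was in WT nuclei replicate 1 and the highest, 2886 CPM, in K700E nuclei replicate 3, while the 6 cytoplasmic sums lay between 762 and 835 CPM. The 8 most abundant members made up 19.5% of the members' counts in K700E cytoplasm, 32.5% in K700E nuclei, 23.6% in WT cytoplasm and 31.3% in WT nuclei.

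**Figure D1:**
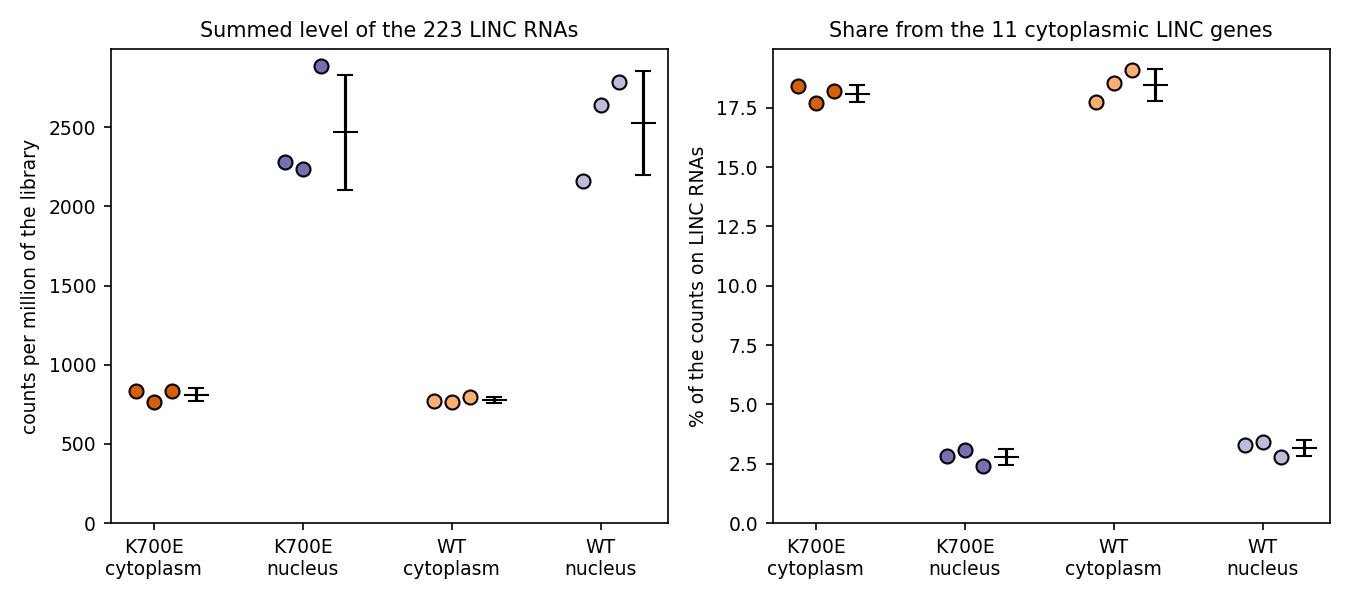
Left, the summed level of the 223 LINC RNAs in CPM of each library; right, the percentage of the LINC counts that fell on the 11 genes called higher in WT cytoplasm. Points are single libraries and bars are the mean with the SD of 3; the cytoplasmic sums lie between 762 and 835 CPM and the nuclear ones between 2159 and 2886. The sums include 100 members that reached 1 CPM in nuclei alone and 3 that did so in cytoplasm alone.

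Tested gene by gene, more LINC RNAs were called lower in cytoplasm than higher, and how many were lower depended on the RNAs that reached 1 CPM in nuclei alone. In K700E, 118 of 223 members (52.9%) were called lower and 16 (7.17%) higher, by edgeR's quasi-likelihood test with Benjamini-Hochberg adjustment over 20394 genes at 0.05, against 37.9% lower and 28.1% higher among all genes tested. In WT, 130 (58.3%) were called lower and 11 (4.93%) higher, against 40.0% and 27.1% of all genes. The median log2 difference over members was -1.33 in K700E and -1.63 in WT, beside -0.29 and -0.40 over all genes. All 223 passed the filter on low counts, but a mean over both fractions lets an RNA enter through the fraction where it is abundant: 120 members reached 1 CPM in both fractions, 100 in nuclei alone and 3 in cytoplasm alone. The 100 had to be lower in cytoplasm to be of this kind, so the counts over 223 are a description. Among the 120, 43 (35.8%) were called lower and 13 (10.8%) higher in K700E, and 49 (40.8%) lower and 8 (6.67%) higher in WT, so most of them were not called lower. These shares of lower calls lie near those of all genes tested, given above, a set without the filter on both fractions. The matched set is all 13721 genes at 1 CPM or more in both fractions. Of these, 24.6% were called lower and 38.2% higher in K700E, and 26.1% and 37.1% in WT. Beside that set the members had more lower calls and fewer higher ones, a difference that was not tested. The median log2 difference of the 120 was -0.47 in K700E and -0.66 in WT, beside 0.30 and 0.23 over those 13721 genes. With library size as the only scaling, the median of all genes shifted by -0.41 in K700E and -0.52 in WT, and 10 and 6 members were then called higher.

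The calls of the constructs were set side by side. Of the 223, 113 were called lower in both constructs, 11 higher in both and 72 in neither. Another 17 were called in WT alone (all lower) and 10 in K700E alone (5 higher, 5 lower). No member was called in opposite directions. Construct by construct, 37.9% of all genes were called lower and 28.1% higher in K700E, and 40.0% and 27.1% in WT. Joint counts over all genes are not given, so those of the members are a description. Pearson's r between the log2 differences of K700E and WT was 0.917 over the 223 genes (Spearman's rho 0.941), beside 0.932 over all genes tested, and genes in these libraries are not independent replicates. All cytoplasmic libraries lay below all nuclear ones for 124 members in each construct (40.4% of all genes in each did so), and above them for 20 (30.2% of all genes in K700E, 29.7% in WT). These counts are a description too, since 100 members reached 1 CPM in nuclei alone and 3 in cytoplasm alone. In log2 terms, 56 members were below -3 in K700E and 54 in WT, and 16 and 11 were at 1 or more. Those at 1 or more are not the same genes as those called higher. In WT, LINC00888 (0.72) and the longer locus of LINC01605 (0.96) were called below 1. Shares of all genes in these ranges are not given.

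**Figure D2:**
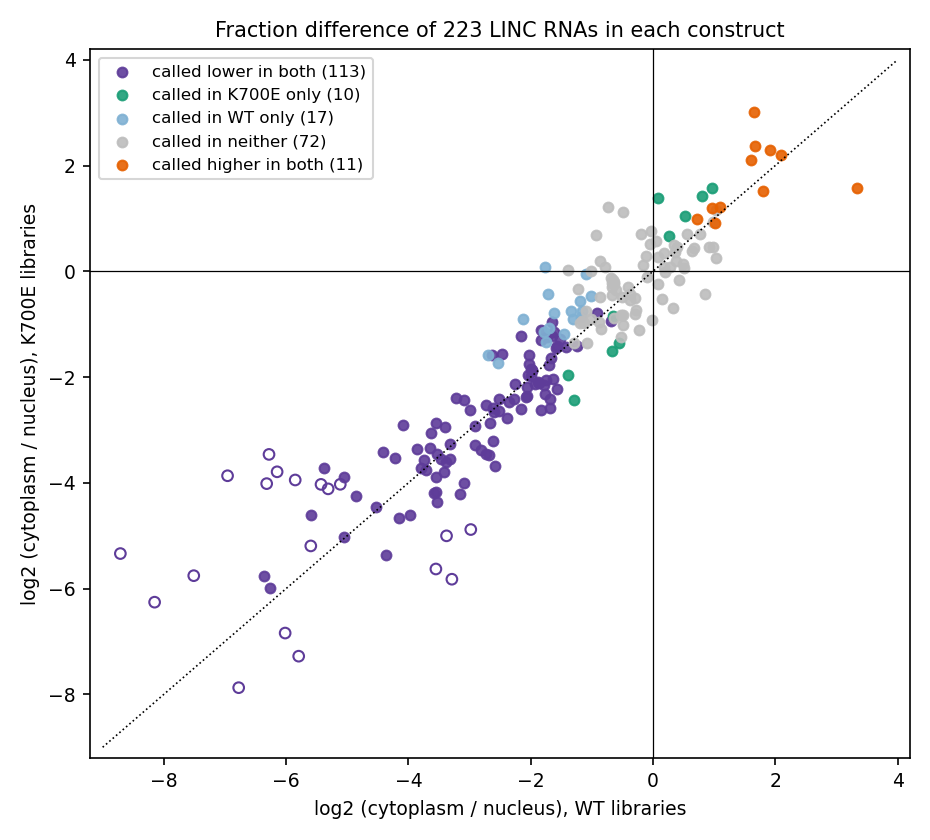
Log2 ratio of cytoplasm to nucleus for the 223 LINC RNAs in WT libraries (horizontal) and K700E libraries (vertical), coloured by call. Open circles had 3 or fewer counts in the cytoplasm of a construct, so their fitted ratios depend on the prior count; the 11 genes called higher in both constructs are at the upper right, and 113 genes called lower in both run down the dotted line of equal values.

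Other classes of RNA were counted in the same way. Of 2059 other lncRNAs at 1 CPM or more, 1376 were called lower and 112 higher in K700E (median log2 difference -2.34), and 1402 and 86 in WT (-2.41). Divergent transcripts, with symbols ending in -DT, had 115 lower and 39 higher of 307 in K700E, and 122 and 26 in WT, with medians of -0.72 and -0.99. Antisense symbols had 402 lower and 47 higher of 720 in K700E, and 423 and 40 in WT. Host genes of miRNAs had the lowest medians of these classes, -3.0 in K700E and -2.91 in WT, with 24 of 29 lower in each construct, while the SNHG genes, whose introns encode small nucleolar RNAs, had 7 of 24 lower in each and 8 higher in K700E, 5 in WT. The 112 LINC RNAs under 1 CPM that could be tested had medians of -2.01 in K700E and -2.21 in WT, and protein-coding genes 0.19 and 0.13. These are descriptions of each class, and differences between classes were not tested.

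**Figure D3:**
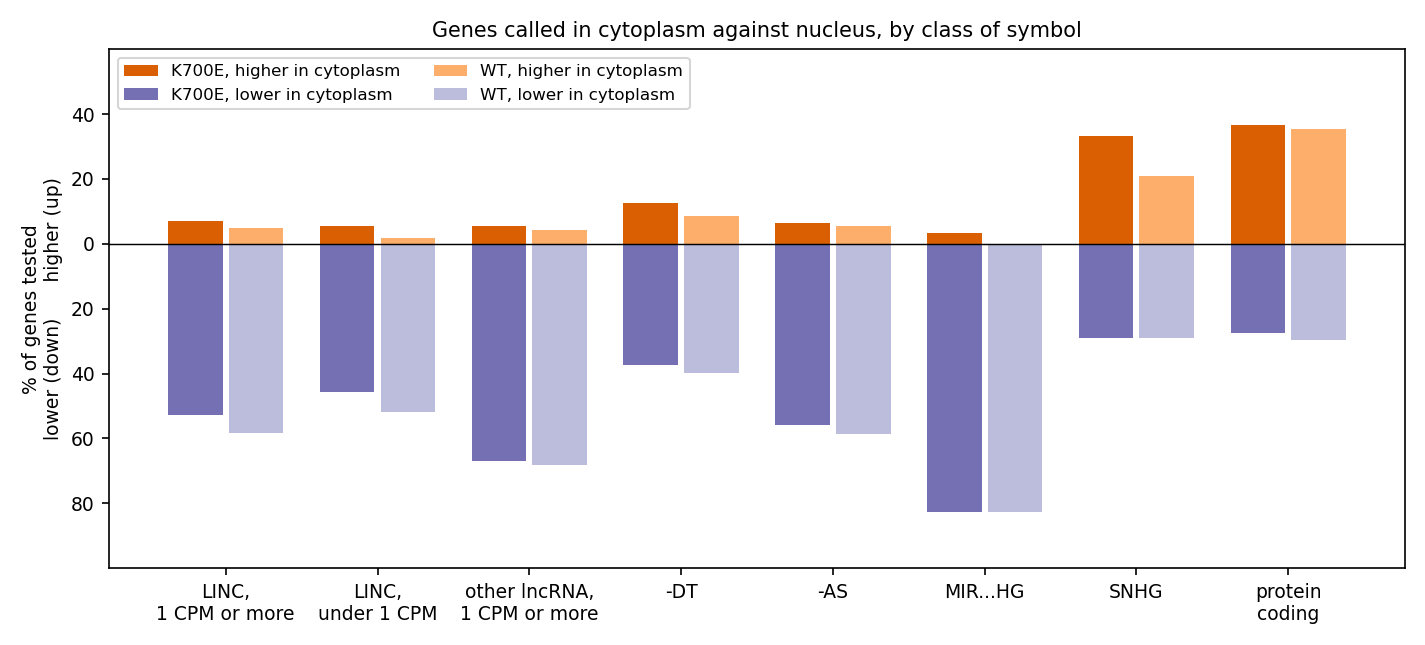
Percentage of tested genes called higher (upward bars) or lower (downward bars) in cytoplasm than in nucleus, by class of symbol, with K700E at the left and WT at the right of each pair. In LINC RNAs of 1 CPM or more, 7.17% were higher and 52.9% lower in K700E, against 4.93% and 58.3% in WT.

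The cytoplasmic minority is the 11 IDs, 10 symbols, that were called higher in WT cytoplasm: LINC00467, LINC02381, LINC00888, LINC01605 (both IDs), LINC01547, LINC01881, LINC00674, LINC01806, LINC02321 and LINC01508. Their WT fraction difference chose them and is given as a description, and the K700E fraction difference tests them. The choice was not wholly free of the K700E libraries, since the 1 CPM mean and the estimate of the spread ran over all 12 libraries. The 6 WT libraries alone chose 10 of the 11, without the shorter locus of LINC01605. The 8 that reached 1 CPM in both fractions were all called higher in K700E cytoplasm too, with log2 differences of 0.92 to 2.29. Of all 13721 genes at 1 CPM or more in both fractions, 38.2% were called higher in K700E. The share among those also called higher in WT is not given, so these calls do not set the 8 apart from other genes. The other 3, LINC01806, LINC02321 and LINC01508, entered through cytoplasm alone, so their K700E calls, at 1.57 to 3.02, are not independent of the choice. In all 11 the 3 cytoplasmic libraries lay above the 3 nuclear ones in each construct, beside 30.2% of all genes in K700E and 29.7% in WT. In WT this is a description, since those values chose the genes. In K700E it is not independent for the 3 that entered through cytoplasm alone. In a fit of the 6 K700E libraries alone, 15 members were called higher, all 11 among them, and the same limit holds for those 3. The share of all genes called higher in that fit is not given. Together the 11 held 18.1% of the members' counts in K700E cytoplasm, against 2.76% in K700E nuclei, and 18.5% in WT cytoplasm, against 3.16% in WT nuclei. Without WT cytoplasm replicate 2 in the fit, 7 genes were called in both constructs, and the count was 5 with library size as the only scaling. With that scaling LINC00888, LINC01508, LINC02321 and both loci of LINC01605 lost the WT call. With DESeq2 size factors LINC00888 and LINC01508 lost it. The minority was spread over 9 chromosomes.

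LINC00467 (ENSG00000153363.13, chromosome 1, 211382803 to 211435333, plus strand, GENCODE 29 on GRCh38) was the most abundant of them by counts. It has been reported to encode ASAP, a micropeptide of the mitochondrial ATP synthase. Its level was 51.0, 39.8 and 32.4 TMM-scaled CPM in K700E cytoplasm, against 13.9, 23.2 and 16.2 in K700E nuclei, and 40.3, 45.4 and 33.8 in WT cytoplasm, against 17.9, 18.6 and 19.6 in WT nuclei. Every cytoplasmic library stood above every nuclear one. The difference in K700E was 1.21 ± 0.25 on the log2 scale (SE), or 2.31-fold (edgeR adjusted p = 0.000523), beside 1.09 ± 0.25 in WT. The genes whose log2 levels followed LINC00467 most closely over the 12 libraries were LINC01508 (Pearson's r = 0.937), LINC02321 (0.914) and LINC01605 (0.890, the longer locus), all in the minority, and the fraction difference is part of each of these values.

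LINC02381 (chromosome 12, 54126098 to 54142493, plus strand, overlapping the span of SMUG1 without sharing exon bases) had 40.2, 37.3 and 51.1 CPM in K700E cytoplasm, against 9.66, 6.31 and 10.3 in K700E nuclei, and 42.2, 39.8 and 55.0 CPM in WT cytoplasm, against 12.2, 12.1 and 11.8 in WT nuclei. Its K700E difference of 2.29 ± 0.25 (4.89-fold, edgeR adjusted p = 1.2e-06) had the smallest p of the minority. LINC01547 (chromosome 21, 44932814 to 44939913, minus strand) starts 97 bases from the start of FAM207A on the opposite strand. It had 10.8, 13.5 and 23.8 CPM in K700E cytoplasm, against 4.47, 2.33 and 3.58 in K700E nuclei (log2 difference 2.21 ± 0.37, edgeR adjusted p = 8.12e-05), and 16.7 to 22.4 CPM in WT cytoplasm, against 3.37 to 6.42 in WT nuclei. It is the single minority gene among 12 members that start within 1000 bases of an opposite coding start.

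Of the minority, 3 genes are annotated in GENCODE 29 as transcribed pseudogenes. LINC00888 (chromosome 3, 183447608 to 183456013, plus strand), whose span holds annotated small RNA genes such as SNORA63D, had 26.3, 20.3 and 26.1 CPM in K700E cytoplasm, against 11.6, 17.5 and 7.41 in K700E nuclei, and 18.1, 20.4 and 23.0 CPM in WT cytoplasm, against 11.9, 13.7 and 11.7 in WT nuclei. The groups were separate but close, and the K700E difference was 0.99 ± 0.29 (edgeR adjusted p = 0.00604). The WT difference of LINC00888, 0.72 ± 0.29, lost its call without WT cytoplasm replicate 2 (0.74) or 3 (0.65) and without WT nucleus replicate 1 (0.75) or 3 (0.73). LINC01881 (chromosome 2, 242088633 to 242160153) had 11, 8.28 and 9.96 CPM in K700E cytoplasm, against 1.84, 2.07 and 2.88 in K700E nuclei (2.11 ± 0.38, edgeR adjusted p = 0.000144), and 6.56 to 8.56 CPM in WT cytoplasm, against 1.82 to 4.03 in WT nuclei. LINC00674 (chromosome 17, 68101908 to 68115518), which overlaps no other annotated gene, had 8.56, 7.59 and 3.91 CPM in K700E cytoplasm, against 2.24, 1.81 and 2.88 in K700E nuclei (1.53 ± 0.42, edgeR adjusted p = 0.00466), and 6.28 to 7.06 CPM in WT cytoplasm, against 0.940 to 2.55 in WT nuclei. Counts of such genes are uncertain where reads also match the parent gene or its copies, since the counting of shared reads is not given in the sources used here.

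LINC01605 was counted under 2 IDs on the minus strand of chromosome 8, with the shorter locus (37516410 to 37517021) inside the span of the longer (37421341 to 37554183) and no exon bases in common, so the 2 values may describe parts of 1 RNA. The longer locus had 14.4, 14.4 and 15.6 CPM in K700E cytoplasm, against 6.23, 6.13 and 6.89 in K700E nuclei, and 13.0, 14.0 and 16.1 CPM in WT cytoplasm, against 6.42, 8.16 and 7.55 in WT nuclei. Replicates of the longer locus lay close together, and its K700E difference was 1.20 ± 0.25 (edgeR adjusted p = 0.000586). The shorter locus of LINC01605 had 10.4, 9.44 and 6.33 CPM in K700E cytoplasm, against 4.63, 3.97 and 5.15 in K700E nuclei, and 10.7, 11.9 and 9.41 CPM in WT cytoplasm, against 2.66, 8.77 and 4.46 in WT nuclei. It differed by 0.92 ± 0.38 in K700E (edgeR adjusted p = 0.0425). That call was lost in 7 of the fits that left out 1 library, namely without any 1 of the K700E nucleus replicates, without K700E cytoplasm replicate 1 or 2 and without WT cytoplasm replicate 1 or 2, at estimates between 0.79 and 1.05. Its WT call (1.01) was lost without WT cytoplasm replicate 1 or 2 and without WT nucleus replicate 1 or 3 (0.74 to 1.03).

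The remaining 3 genes of the minority were the only members that reached 1 CPM in cytoplasm alone. LINC01806 (chromosome 2, 161244739 to 161249050) had 1.20, 1.94 and 3.63 CPM in K700E cytoplasm, against 0.958, 0.95 and 0.349 in K700E nuclei, and 1.87, 3.65 and 3.27 CPM in WT cytoplasm, against 0.470, 0.0877 and 0.273 in WT nuclei. Its difference was 1.57 ± 0.61 in K700E (edgeR adjusted p = 0.0318) beside 3.34 ± 0.68 in WT, and the difference between constructs, -1.77 ± 0.91, did not pass (edgeR adjusted p = 0.98). The K700E call of LINC01806 was lost without K700E cytoplasm replicate 3 (1.09) and without K700E nucleus replicate 3 (1.28). LINC02321 (chromosome 14, 90822365 to 90828128, minus strand, no overlapping gene) had 2.05, 1.86 and 2.35 CPM in K700E cytoplasm, against 0.319, 0.432 and 0.436 in K700E nuclei (2.37 ± 0.56, edgeR adjusted p = 0.00153), and 1.18 to 2.49 CPM in WT cytoplasm, against 0.364 to 0.705 in WT nuclei. None of its libraries crossed between fractions. LINC01508 (chromosome 9, 90300902 to 90433505, minus strand, no overlapping gene) had 2.82, 2.55 and 1.78 CPM in K700E cytoplasm, against 0, 0.518 and 0.349 in K700E nuclei (3.02 ± 0.73, edgeR adjusted p = 0.00174), and 1.49 to 1.60 CPM in WT cytoplasm, against 0.273 to 0.614 in WT nuclei. In WT the calls that chose LINC02321 (1.66) and LINC01508 (1.65) were lost without WT cytoplasm replicate 2 (1.38 and 1.69). That of LINC01508 was also lost without K700E cytoplasm replicate 1 or 2, WT cytoplasm replicate 1 or 3, or WT nucleus replicate 1 or 3 (1.44 to 1.82).

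**Figure D4:**
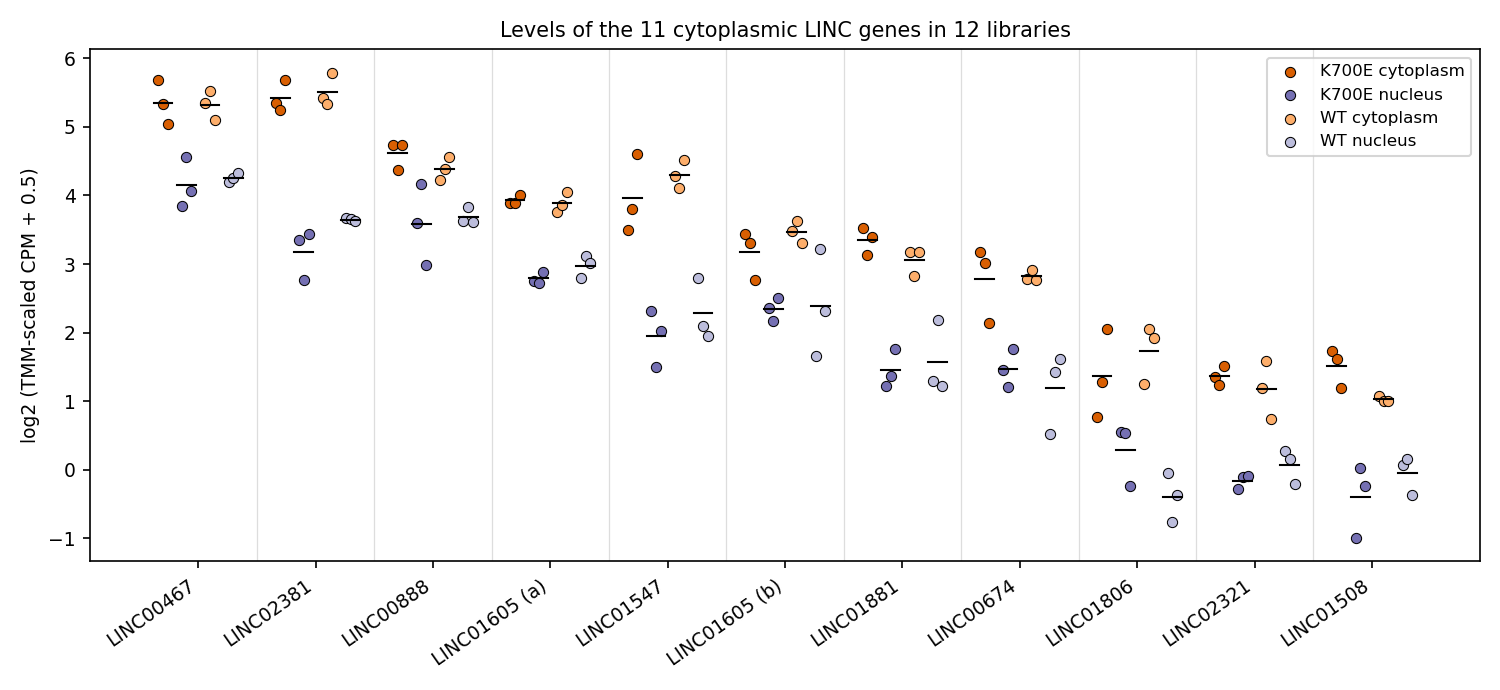
Level of each of the 11 minority genes in the 12 libraries, as log2 of TMM-scaled CPM + 0.5, with points for libraries and short lines for group means; LINC01605 (a) is the longer and (b) the shorter locus. In every gene the cytoplasmic points of a construct lie above its nuclear points, by log2 differences of 0.92 to 3.02 in K700E. The WT values chose these genes, so their separation in WT is a description.

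Choosing in K700E in place of WT gave 16 genes, of which the same 11 were called in WT. The other 5, named after their values were seen, were LINC00265, LINC01703, LINC00623, LINC01694 and LINC03011. LINC01703 (chromosome 1, 226083639 to 226090292, plus strand) had 12.4, 9.68 and 10.2 CPM in K700E cytoplasm, against 3.12, 3.28 and 5.93 in K700E nuclei, and 5.16, 7.64 and 5.75 CPM in WT cytoplasm, against 3.84, 7.89 and 5.82 in WT nuclei. The fractions of LINC01703 were apart in K700E (1.39 ± 0.36, edgeR adjusted p = 0.00296) and overlapped in WT (0.08 ± 0.36). The difference between constructs, 1.31 ± 0.50, did not pass (edgeR adjusted p = 0.98). The WT estimates of LINC01694 (0.81), LINC03011 (0.97), LINC00623 (0.53) and LINC00265 (0.27) were all above 0 without passing the test.

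Sequence elements that hold RNAs in the nucleus were looked for in the members. The 7-letter words ACCTCCC and GCCTCCC belong to SIRLOIN, an element derived from antisense Alu repeats that binds HNRNPK and promotes nuclear localisation, and AGCCC is the core of a retention element described in the RNA BORG. The words were searched on the transcript strand alone of the longest GENCODE 29 transcript of each of 222 members, with overlapping matches counted; none of the 3 words contains another. GCCTCCC was present in 6 of the 11 minority transcripts (54.5%), in 48 of 129 transcripts of members lower in WT cytoplasm (37.2%) and in 33.9% of 3455 tested lncRNAs and members. ACCTCCC was present in 3 of 11, in 28 of 129 (21.7%) and in 17.9%, and AGCCC in 6 of 11 (54.5%), in 97 of 129 (75.2%) and in 67.9%. Among the 82 members not called in WT, GCCTCCC was present in 45.1%, ACCTCCC in 32.9% and AGCCC in 86.6%. A match says that the letters are there, and the longest annotated transcript need not be the one expressed. The windows below, 5′ to 3′ as DNA letters, show 1 match in each of 3 minority genes, with the word in capitals, as examples of RNAs called higher in cytoplasm that carry it.
LINC02321: ctcctgcgtcaGCCTCCCaagtagg
LINC02381: tccttcctcaaGCCTCCCtggctcattgat
LINC01547: agagccccctcACCTCCCtggggatgaggg

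The matches start at base 371 of the LINC02321 transcript, near its 3′ end, 1004 of LINC02381 and 2053 of LINC01547, counted from 1 at the 5′ end. Across the 222 genes, which share their libraries, Spearman's rho between words per kb and the WT fraction difference was 0.15 for ACCTCCC. It was 0.14 for GCCTCCC. For AGCCC it was 0.06.

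Gene structure is given as medians. The median number of exons in the longest transcript was 3 in the minority and 3 in members lower in WT cytoplasm, and the median spliced length was 1235 against 1875 bases. None of the 11 minority transcripts had a single exon, against 19 of 129 among the lower ones and 15 of 82 among those not called in WT. Median GC content was 46.3% in the minority and 46.6% in the lower members. Spearman's rho with the WT fraction difference over 222 genes was -0.14 for exons, 0.06 for spliced length, -0.05 for gene span and 0.16 for GC content. With the K700E difference it was -0.16, 0.05, -0.08 and 0.24, in the same order. Despite the name, 69 of 222 members shared exon bases with another annotated gene and 24 overlapped a coding gene, while 104 overlapped no other gene, 3 of these in the minority. In GENCODE 29, 8 members were typed as pseudogenes and 1, LINC02693, as protein coding under the name C17orf51.

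Most of the 8 most abundant members by counts were called lower in cytoplasm in both constructs. Among these 8, LINC02693 was called in neither construct and LINC00641 in K700E alone. LINC00662 (chromosome 19, 27684580 to 27793940, minus strand) had 27.3, 25.3 and 19.6 CPM in K700E cytoplasm, against 109, 152 and 186 in K700E nuclei, and 21.5, 20.3 and 17.8 CPM in WT cytoplasm, against 84.7, 189 and 202 in WT nuclei. It was 6.19-fold lower in K700E cytoplasm (log2 difference -2.63 ± 0.31, edgeR adjusted p = 2e-06) and 7.98-fold lower in WT cytoplasm (-3.0 ± 0.31, edgeR adjusted p = 6.37e-07), with no overlap between fractions. LINC00342 (chromosome 2, 95807118 to 95816215, minus strand, no overlapping gene) had the widest gap among the 8 most abundant. It had 3.68, 5.42 and 1.85 CPM in K700E cytoplasm, against 91.4, 71.3 and 195 in K700E nuclei, and 3.29, 4.57 and 1.76 CPM in WT cytoplasm, against 79.9, 83.1 and 155 in WT nuclei. It was 32.7-fold lower in K700E cytoplasm (-5.03 ± 0.49) and 33.3-fold lower in WT cytoplasm (-5.06 ± 0.49), with edgeR adjusted p = 3.33e-07 and 3.46e-07.

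LINC00632 (chromosome X, 140709562 to 140793215, plus strand) is the host of the circular RNA CDR1-AS, and gene-level counts do not part circular from linear molecules. It had 36.5, 23.9 and 15.2 CPM in K700E cytoplasm, against 93.1, 121 and 102 in K700E nuclei (-2.06 ± 0.27, edgeR adjusted p = 5.6e-06), and 24.2, 25.3 and 26 CPM in WT cytoplasm, against 81.7, 79.9 and 93.0 in WT nuclei (-1.75 ± 0.26, edgeR adjusted p = 2.64e-05). LINC02593 (chromosome 1, 916865 to 921016) and the single-exon gene LINC02986 (chromosome 8, 80541300 to 80543104) fell by 3.72 and 4.0 on the log2 scale in K700E and by 3.80 and 3.09 in WT. LINC00205 fell by 0.95 in K700E and by 0.68 in WT (edgeR adjusted p = 0.0337), where the call was lost in 6 fits that left out 1 library, namely K700E nucleus replicate 1 or 3, WT cytoplasm replicate 2 or 3, or WT nucleus replicate 1 or 3 (-0.43 to -0.66).

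LINC00641 (chromosome 14, 21200079 to 21206900, minus strand) varied most, relative to its mean, of the 8 abundant genes between WT nuclei. It had 31.1, 41.6 and 35.7 CPM in K700E cytoplasm, against 135, 74.6 and 67.8 in K700E nuclei, and 75.3, 52.1 and 45 CPM in WT cytoplasm, against 149, 26.4 and 75.8 in WT nuclei. The fractions were apart in K700E (-1.35 ± 0.43, edgeR adjusted p = 0.0117; not called without K700E nucleus replicate 1, at -0.93), while in WT the nuclear libraries lay on both sides of the cytoplasmic ones. The WT estimate was -0.55 ± 0.43 with all libraries, 0.22 without WT nucleus replicate 1 and -0.93, then called, without WT nucleus replicate 2; with library size as the only scaling it was called too, at -1.04. Counts favour long RNAs, and per kilobase of exon the order was different: LINC00342 had 22.2 CPM per kb as a mean of the 12 libraries, LINC02986 18.0, LINC00641 11.8, LINC00662 11.1, LINC00467 6.60 and LINC00632 2.08. The highest value per kilobase, 37.4, belonged to LINC03046, a short RNA named after its values were seen.

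At the nuclear end, 4 members had no count in the 3 cytoplasmic libraries of a construct. LINC02795 (chromosome 1, 86288704 to 86320711, minus strand) had 0.171, 0.232 and 0 CPM in K700E cytoplasm, against 6.63, 5.70 and 4.71 in K700E nuclei. In WT it had 0 counts in cytoplasm, against 149 in nuclei, and was at least 54.5-fold lower in cytoplasm, taking a floor of 3 counts over the group. LINC01796 and LINC02115 had 0 cytoplasmic counts in WT, against 99 and 63 nuclear ones, and were at least 36.2-fold and 23.0-fold lower. LINC02412, named after its values were seen, had 0 counts in K700E cytoplasm, against 55 in K700E nuclei, and was at least 19.9-fold lower.

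Other members close to the floor were measured as ratios of counts. LINC02254 (chromosome 15, 97370371 to 97521811) had 1 count in K700E cytoplasm, against 299 in K700E nuclei (325-fold higher in nuclei, exact 95% interval 57.9 to 12879), and 2 counts in WT cytoplasm, against 232 in WT nuclei (127-fold, 34.8 to 1057). LINC02908 had 1 count in WT cytoplasm, against 156 in WT nuclei (171-fold, 30.3 to 6803). LINC01359 (chromosome 1, 64972225 to 65002489) had 0.171, 0.232 and 0.356 CPM in K700E cytoplasm, against 12.6, 13.6 and 17.1 in K700E nuclei (-5.75 ± 0.55), and 0 to 0.267 CPM in WT cytoplasm, against 8.38 to 19.2 in WT nuclei (-6.37 ± 0.59). These intervals and floors cover counting error alone. LINC02795, LINC01796, LINC02115, LINC02412, LINC02254, LINC02908 and LINC01359 were each called lower in both constructs by edgeR.

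Between the extremes, 72 members were called in neither construct. LINC02693 (chromosome 17, 21428381 to 21574517) had 50.7, 56.4 and 71.0 CPM in K700E cytoplasm, against 53.0, 51.9 and 66.0 in K700E nuclei, and 80, 60 and 75.7 CPM in WT cytoplasm, against 54.4, 41.0 and 56.7 in WT nuclei. Its fractions overlapped in K700E (0.06 ± 0.22) and were apart in WT (0.50 ± 0.22), where it missed the threshold (edgeR adjusted p = 0.0504) and passed it without K700E cytoplasm replicate 3, any 1 of the K700E nucleus replicates, WT cytoplasm replicate 2, or WT nucleus replicate 1 or 3 (0.53 to 0.64). LINC00294 (0.37 ± 0.22 in K700E, 0.36 ± 0.22 in WT), LINC01278 (0.46 ± 0.24 and 0.40 ± 0.25) and LINC01128 (-0.11 ± 0.23 and -0.10 ± 0.23) were the next most abundant of this kind. LINC01278 passed in K700E without K700E nucleus replicate 3 (0.70). With library size alone, the estimates of LINC02693 and LINC00294 were below 0 in both constructs, and that of LINC01278 in WT, while LINC01128 was called lower in WT (-0.62).

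Whether the K700E construct moved LINC RNAs was tested within each fraction, and no member was called. In cytoplasm edgeR called 0 of 223 members at an adjusted p under 0.05 and 1 of 20394 genes (0.0049%), with 11 members (4.93%) under 0.05 before adjustment, beside 4.56% of all genes. In nuclei it called 0 members and 0.0% of all genes, with 4 members (1.79%) under 0.05 before adjustment, beside 6.81% of all genes. For the interaction, the K700E fraction difference minus the WT one, it called 0 members and 0.0% of all genes, with 9 members (4.04%) before adjustment, beside 3.3%. DESeq2 and limma voom called 0 members in each of these comparisons as well. The median log2 difference of K700E against WT over members was 0.07 in cytoplasm, -0.0015 in nuclei and 0.11 for the interaction, with median standard errors of 0.54, 0.49 and 0.73. With 3 libraries a group, differences of the size of these errors were not detectable gene by gene.

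The genes with the smallest p show how large the estimates were. LINC00862 (chromosome 1, 200253419 to 200400705, minus strand) had 12 counts in K700E cytoplasm against 1 in WT cytoplasm, a ratio of 12 with an exact 95% interval of 1.77 to 512, and its edgeR adjusted p was 1. LINC01003 (chromosome 7, 152463786 to 152465549, plus strand) had 13.4, 7.20 and 8.54 CPM in K700E cytoplasm, against 4.45, 5.48 and 3.60 in WT cytoplasm (log2 difference 1.1 ± 0.33, edgeR adjusted p = 1). LINC01138 had 9.67, 5.42 and 8.83 CPM in K700E cytoplasm, against 3.11, 2.99 and 4.90 in WT cytoplasm (1.11 ± 0.34, edgeR adjusted p = 1), and shares 21.9% of its exon bases with other annotated genes, so its counts are uncertain. In all of these 3 genes the K700E libraries lay above the WT ones. Such separation held for 33 members in cytoplasm (14.8%, beside 13.6% of all genes), with K700E higher in 22, and for 13 in nuclei (5.83%, beside 8.78%), with K700E higher in 7.

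In nuclei the 3 smallest p belonged to genes that were lower in K700E without passing the test. LINC03072 had 6.95, 5.79 and 8.20 CPM in K700E nuclei, against 7.83, 20.1 and 14.1 in WT nuclei (-1.0 ± 0.33, edgeR adjusted p = 0.659), and the ranges overlapped through WT nucleus replicate 1. LINC01521 had 6.55, 5.96 and 6.45 CPM in K700E nuclei, against 6.19, 18.3 and 16.2 in WT nuclei (-1.1 ± 0.39), with the same WT library at the level of K700E. LINC02987 had 15.9, 11.2 and 14.8 CPM in K700E nuclei, against 15.8, 30.9 and 24.5 in WT nuclei (-0.76 ± 0.31); its first bases overlap those of LINC00662 on the other strand, and reads there cannot be told apart unless strand was counted. LINC02908, whose ratio was given above, had an interaction of 3.09 ± 1.21 that rests on 8 cytoplasmic counts in K700E and 1 in WT (edgeR adjusted p = 0.98).

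**Figure D5:**
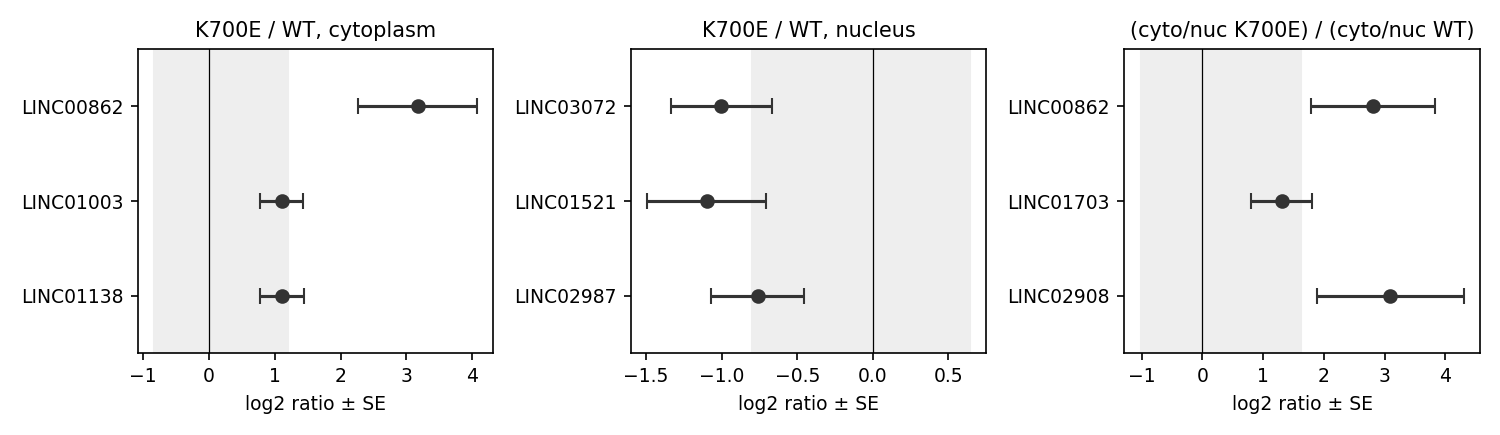
Log2 estimates with their standard errors for the 3 members with the smallest p in K700E against WT in cytoplasm, in nuclei, and in the interaction; grey bands hold the middle 90% of the 223 estimates. None passed the test: the smallest adjusted p over the members was 1 in cytoplasm, 0.659 in nuclei and 0.98 for the interaction.

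No gene of the minority was called between constructs. Their K700E-against-WT differences ran from -0.37 to 0.63 in cytoplasm and from -0.73 to 1.39 in nuclei. The smallest unadjusted p in edgeR was 0.323 in cytoplasm and 0.0669 in nuclei. Of the 11, 7 were positive in cytoplasm and 2 in nuclei, beside 131 and 111 of all 223 members. The WT libraries also chose the minority, so these values and signs are not independent of the choice and are a description. LINC01508 alone of the minority had K700E cytoplasmic libraries all above the WT ones, and LINC02381 alone had K700E nuclear libraries all below the WT ones. The summed level of the 223 RNAs overlapped between constructs in both fractions.

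RNAs that once had a LINC number and now carry another name were examined as a list given by name. The list was chosen with earlier results of these data known. Of 12 such genes, 11 were tested. Among all genes tested, 28.1% were called higher in cytoplasm and 37.9% lower in K700E, and 27.1% and 40.0% in WT. Of the 11, 6 were called higher in cytoplasm and 4 lower in each construct. The higher ones were NORAD, which binds PUMILIO proteins (0.83 in K700E, 1.37 in WT, on the log2 scale), BRD3OS (2.97 and 2.46), and genes of small proteins: NBDY of processing bodies (3.02 and 3.13), mitoregulin MTLN (1.60 and 1.53), and the membrane proteins SMIM26 (1.81 and 1.74) and SMIM30 (1.43 and 1.84). The lower ones were CRNDE (-2.65 and -2.11), PURPL, a regulator of p53 (-2.19 and -2.56), CHASERR, which acts on its neighbour CHD2 (-1.14 and -0.85), and MIR4435-2HG (-1.24 and -1.42). CYTOR was not called (0.40 and -0.34) and SPAAR was below the filter. None of the 11 was called in K700E against WT in either fraction.

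The mRNAs of factors that retain, degrade or export non-coding RNA were examined in the same way. Of 14 tested, none was called in K700E against WT in cytoplasm, where the median log2 difference was -0.16, or in nuclei, where it was -0.03. By fraction, 36.5% of all 13901 protein-coding genes tested were called higher in K700E cytoplasm and 27.4% lower. In WT these shares were 35.4% and 29.5%. Of the 14 factors, 5 were called higher in cytoplasm and 3 lower in each construct. ALYREF, an export adaptor (2.57 in K700E, 2.61 in WT), THOC5 (1.19 and 0.95), MTREX (0.82 and 1.15), HNRNPK (0.96 and 1.34) and HNRNPU (0.55 and 1.11) were higher. ZFC3H1, which targets polyadenylated nuclear RNA to the exosome (-2.28 and -2.13), the nuclear poly(A)-binding protein gene PABPN1 (-2.33 and -2.64) and the cytoplasmic exonuclease gene XRN1 (-0.91 and -0.71) were lower. These are positions of the mRNAs and say nothing of the proteins.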

How the data were processed

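Nuclear and cytoplasmic RNA was extracted with Trizol and made into libraries with a NEBNext Ultra RNA kit, per the labels' protocols; poly(A) selection and strand are not stated there. The deposited files hold raw read counts per gene, 1 file per library, and per the submitters' processing notes HISAT2 and DESeq were used. For the counting program, genome build and annotation, the answer is not given in the sources used here. IDs were matched without version to symbols (60463 of 67049) and to GENCODE 29 on GRCh38 (58440, 222 of the 223 members), which gave coordinates, types and transcripts. Counting that ignores strand would merge overlapping genes. Some sequence windows are not reported here.

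All 12 libraries (9086743 to 18116929 counts) were fitted together with edgeR 4.0.16 in R 4.3.3: 1 term per group, TMM scaling, filterByExpr (minimum count 10, minimum total 15), quasi-likelihood F tests and Benjamini-Hochberg adjustment over 20394 genes, called under 0.05. Levels are TMM-scaled CPM, and the summed level uses raw CPM. The biological coefficient of variation was 0.306, and 0.407 within WT nuclei. Floors (3 counts over a group) and exact 95% binomial intervals allow for counting error alone: without molecular identifiers, reads may repeat a molecule. The script was tested on simulated counts. Genes named are the minority (at most 12), the 8 with most counts, the 6 with the most negative WT difference called in both constructs with separate groups and a cytoplasmic count, the 3 with the smallest p in each construct comparison, the 4 most abundant called in neither, the 2 nearest the threshold on each side and the 3 most like LINC00467. The members, lists and rules were chosen with earlier results of these data known. Alternatives were library size as the only scaling, DESeq2 1.42.0 (size factors; Wald test), voom from limma 3.58.1, other filters and thresholds, a replicate block, 6-library fits and leaving out each library.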

Additional observations from a re-analysis of the deposited data

How the results depend on the processing

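In every alternative run, more members were called lower than higher in cytoplasm in both constructs. This is a description. Every run but that with at least 1 CPM in all 12 libraries kept members that reached 1 CPM in nuclei alone, which had to be lower. In the main fit all genes leaned the same way, with 37.9% lower and 28.1% higher in K700E, and 40.0% and 27.1% in WT. Shares of all genes in the alternative runs are not given. With library size as the only scaling, 10 members were called higher in K700E and 6 in WT, and 5 were called in both. With at least 1 CPM in all 12 libraries, 81 members were tested, of which 10 were higher and 43 lower in K700E, 6 higher and 44 lower in WT, and 6 higher in both. Among the 104 members whose span overlaps no other gene, 6 were higher and 56 lower in K700E, 3 higher and 66 lower in WT, and 3 higher in both. With a mean of at least 2 CPM, 86 of 141 were lower in WT. TMM scaling gave summed levels of 943 CPM in K700E cytoplasm, 926 in WT cytoplasm and 2102 in WT nuclei.

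Leaving out 1 library at a time gave 12 to 18 members higher and 104 to 118 lower in K700E, 8 to 14 higher and 114 to 134 lower in WT, 7 (without WT cytoplasm replicate 2) to 12 higher in both, and 0 called between constructs. The main fit did not pair libraries by replicate number. The 18 same-numbered pairs had correlations of -0.249 to 0.427, 5 of them over 0.1, and 6 of 12 libraries correlated best with their own number. Same-numbered K700E and WT libraries correlated at 0.427, 0.0634 and 0.199 in nuclei and at 0.0269, 0.157 and 0.343 in cytoplasm. Same-numbered fractions of 1 construct ran from -0.167 to 0.0935. With a replicate block 15 members were higher and 121 lower in K700E, 13 and 128 in WT, 10 in both, and 0 between constructs.

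Of 1350 alternative estimates for 69 single-gene results, 1274 kept direction and side of the threshold, 50 fell out of the call, 13 entered it and 13 changed sign, all in results that did not pass the test. LINC02693 was -0.011 in WT with library size alone, and in K700E -0.37 with library size alone, -0.059 with DESeq2 size factors, -0.059 with the DESeq2 test, -0.27 with the stricter filter and -0.050 without K700E cytoplasm replicate 3. LINC00294 was -0.042 in K700E and -0.15 in WT, and LINC01278 -0.11 in WT, with library size alone. LINC01128 ran from -0.23 to 0.050 in K700E when a library was left out (0.050 without K700E nucleus replicate 1), and in WT was 0.033 with no filter and 0.023 without WT nucleus replicate 2. LINC00641 ran from -0.93 to 0.22 in WT when a library was left out (0.22 without WT nucleus replicate 1). The causes were not tested.

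The depth limits the low end: 141 of 223 members had means under 5 CPM and the median member had 29 counts per library. The fractions differ in total counts, and CPM compares shares of each fraction's RNA.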
